A study of Mus musculus with 15 samples.

Results

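The MAGE (melanoma antigen) genes Maged1, Maged2, Magee1, Mageh1, Magel2 and Ndn were followed through every library of an RNA sequencing experiment on mouse thalamus. They were chosen by symbol from this gene family, and they are 6 of the 25080 genes listed in each library. All 6 passed the filter on low values (at least 1 TPM in 3 or more libraries, TPM being a transcript abundance corrected for length), as did 13471 genes in all.

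MAGE proteins share a conserved fold, the MAGE homology domain, through which many of them bind RING-type ubiquitin ligases and steer which proteins these modify. The A and B type genes are mostly silent outside the germ line, while the members described here belong to the type that is active in many tissues and particularly in neurons. Maged1 (also NRAGE or Dlxin-1) binds the neurotrophin receptor p75 and homeobox proteins. Maged2 acts in the kidney and in stress responses, and its loss in humans causes a transient antenatal Bartter syndrome. Magee1 (DAMAGE) binds alpha-dystrobrevin, and Mageh1 is a small member of the family. Ndn (necdin) restrains the cell cycle in postmitotic neurons, and Magel2 acts with the ligase TRIM27 in retromer-dependent protein sorting. Ndn and Magel2 are imprinted, expressed from the paternal chromosome, rich in hypothalamus, and lie in the mouse counterpart of the Prader-Willi region.

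The mice were male, 2 to 4 months old and on a C57Bl6J background, and Maged1, the targeted gene, lies on chromosome X. In cKO (conditional knockout) mice, Cre expressed from the Vglut2 (Slc17a6) locus deletes the floxed exons of Maged1 in glutamatergic Vglut2 neurons, while control mice had no Cre-driven deletion. The paper describes controls as floxed littermates, whereas the sample titles call them Maged1 WT and its sequencing methods name WT. All mice received saline injections for 3 days, then 5 days of cocaine at 20 mg/kg or of further saline, and the whole thalamus was microdissected without sorting, so cells that lack Vglut2 contribute an intact Maged1. The 14 libraries analysed comprised 4 with the label control saline, 4 with control cocaine, 4 with cKO saline and 2 with cKO cocaine, and the remaining cKO cocaine sample of 15 was not analysed here. The groups follow the sample titles. These give 7 cocaine and 8 saline samples, whereas the paper's methods count 8 with cocaine and 7 with saline. For 4 of the 8 saline libraries (control replicates 3 and 4, cKO replicates 1 and 2) the genotype tag names the other genotype. Levels are given as TMM-scaled TPM, the deposited TPM divided by a trimmed-mean factor per library, which makes libraries comparable where most genes do not change. TPM are divided by transcript length, so levels of different genes can be compared, but they keep no record of depth, which is unknown here. The factors were 0.807 to 0.9385 in cocaine and 1.068 to 1.216 in saline libraries.

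Maged1 (ENSMUSG00000025151.16) lies on chromosome X from 94535474 to 94542143 on the minus strand (GRCm38, GENCODE M21). Its coding transcript has 13 exons, and the floxed exons 4 to 12 hold 56.6% of its 2821 bases if the exons are numbered as in that transcript. Exons 1 to 3, exon 13 and the promoter lie outside the deletion, so that RNA from those exons still counts toward the gene. Maged2 (ENSMUSG00000025268.15) and Mageh1 (ENSMUSG00000047238.4) are also on the minus strand of chromosome X, from 150806370 to 150814345 and from 153036166 to 153037575. Magee1 (ENSMUSG00000031227.8) is on the plus strand of X from 105120378 to 105123927. Ndn (ENSMUSG00000033585.5) and Magel2 (ENSMUSG00000056972.6) are neighbours on the plus strand of chromosome 7, from 62346569 to 62350262 and from 62377010 to 62381640, with 26747 bases between them. Magee1, Mageh1, Magel2 and Ndn are single-exon genes in this annotation, and Maged2 has 12 exons in its longest coding transcript.

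RefSeq promoters (GRCm38.p6, 250 bases before and 50 after a start) were found for all 6 genes, 9 promoters in all. They are printed for Maged1 and Ndn, the genes called below, for Mageh1, which was lower in every cocaine library, and for Maged2, a gene of the same subfamily as Maged1 and the steadiest of the 6. Capitals mark matches on either strand of GCGCATGCGC, the longest run in the Maged1 promoter that equals its own reverse complement and one known to bind the factor NRF1, and of the GC box GGGGCGG, bound by SP1-type factors. Both were chosen after the sequences had been read.
Maged1, chrX:94541976-94542275, minus strand: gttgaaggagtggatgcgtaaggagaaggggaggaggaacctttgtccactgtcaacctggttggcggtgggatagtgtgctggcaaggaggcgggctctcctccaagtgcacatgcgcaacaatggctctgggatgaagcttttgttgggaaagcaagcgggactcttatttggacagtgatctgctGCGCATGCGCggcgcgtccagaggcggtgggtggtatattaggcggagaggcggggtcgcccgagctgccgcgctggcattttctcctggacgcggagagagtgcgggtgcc
Maged2, chrX:150812953-150813252, minus strand: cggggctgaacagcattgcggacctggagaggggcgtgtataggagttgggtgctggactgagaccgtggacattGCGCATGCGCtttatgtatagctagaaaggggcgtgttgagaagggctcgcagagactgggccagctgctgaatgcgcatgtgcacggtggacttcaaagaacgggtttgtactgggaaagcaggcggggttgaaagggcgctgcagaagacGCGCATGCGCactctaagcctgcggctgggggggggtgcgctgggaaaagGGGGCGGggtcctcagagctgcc
Ndn, chr7:62348027-62348326, plus strand: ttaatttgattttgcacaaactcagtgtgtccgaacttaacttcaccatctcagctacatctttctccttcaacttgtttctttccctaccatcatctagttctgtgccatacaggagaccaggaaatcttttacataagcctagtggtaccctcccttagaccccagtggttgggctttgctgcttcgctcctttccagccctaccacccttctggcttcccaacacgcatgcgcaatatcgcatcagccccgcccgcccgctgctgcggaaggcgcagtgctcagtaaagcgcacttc
Mageh1, chrX:153037514-153037813, minus strand: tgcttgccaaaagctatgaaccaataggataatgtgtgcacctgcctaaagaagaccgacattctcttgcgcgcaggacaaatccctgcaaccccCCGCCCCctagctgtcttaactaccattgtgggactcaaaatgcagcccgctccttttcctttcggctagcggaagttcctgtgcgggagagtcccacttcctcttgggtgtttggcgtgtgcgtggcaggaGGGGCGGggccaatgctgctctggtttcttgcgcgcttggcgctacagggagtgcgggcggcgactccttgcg
Of the 9 promoters, 4 belong to Maged2, and the one printed, chosen after they had been read, is one of the 2 with the palindrome. The palindrome was found 1 time in the promoter of Maged1 and 2 times each in 2 promoters of Maged2 that overlap, and in neither of the other 2 promoters of that gene. Of the 32851 RefSeq promoters of this length, 0.971% hold it. The GC box was found 2 times each in the promoters of Mageh1 and Magel2 and 1 time in each of those of Maged2, and 23.2% of all promoters hold it. Neither run of letters occurred as an exact match in the promoters of Ndn and Magee1, and near matches were not counted for any gene. GC content was 60.3% in the promoter of Maged1, 61.3% in the printed one of Maged2 (49% and 57% in the 2 without the palindrome), 58% in that of Mageh1 and 51% in that of Ndn, and its median over all promoters was 52.7%. These matches describe the letters of the reference genome, and no binding was measured here.

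Maged1 and Ndn were the most abundant of the 6 genes in every library, followed by Magee1, Maged2, Mageh1 and Magel2 in the same order in all 14. In control saline, the mean scaled TPM was 155.4 ± 7.99 for Maged1 and 128.6 ± 16 for Ndn (SD, n = 4). It was 41.9 ± 2.94 for Magee1, 22.4 ± 0.7995 for Maged2, 12.7 ± 0.476 for Mageh1 and 2.12 ± 0.679 for Magel2. Ranges of neighbours in this order did not overlap within control saline. Maged1 stood at place 187 among the 13471 tested genes there. Maged1 spanned 2.97-fold from the lowest to the highest of the 14 libraries, Magel2 2.97-fold and Ndn 2.37-fold. Mageh1 spanned 1.51-fold, Magee1 1.28-fold and Maged2 1.20-fold, and the median tested gene 1.43-fold.

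**Figure D1:**
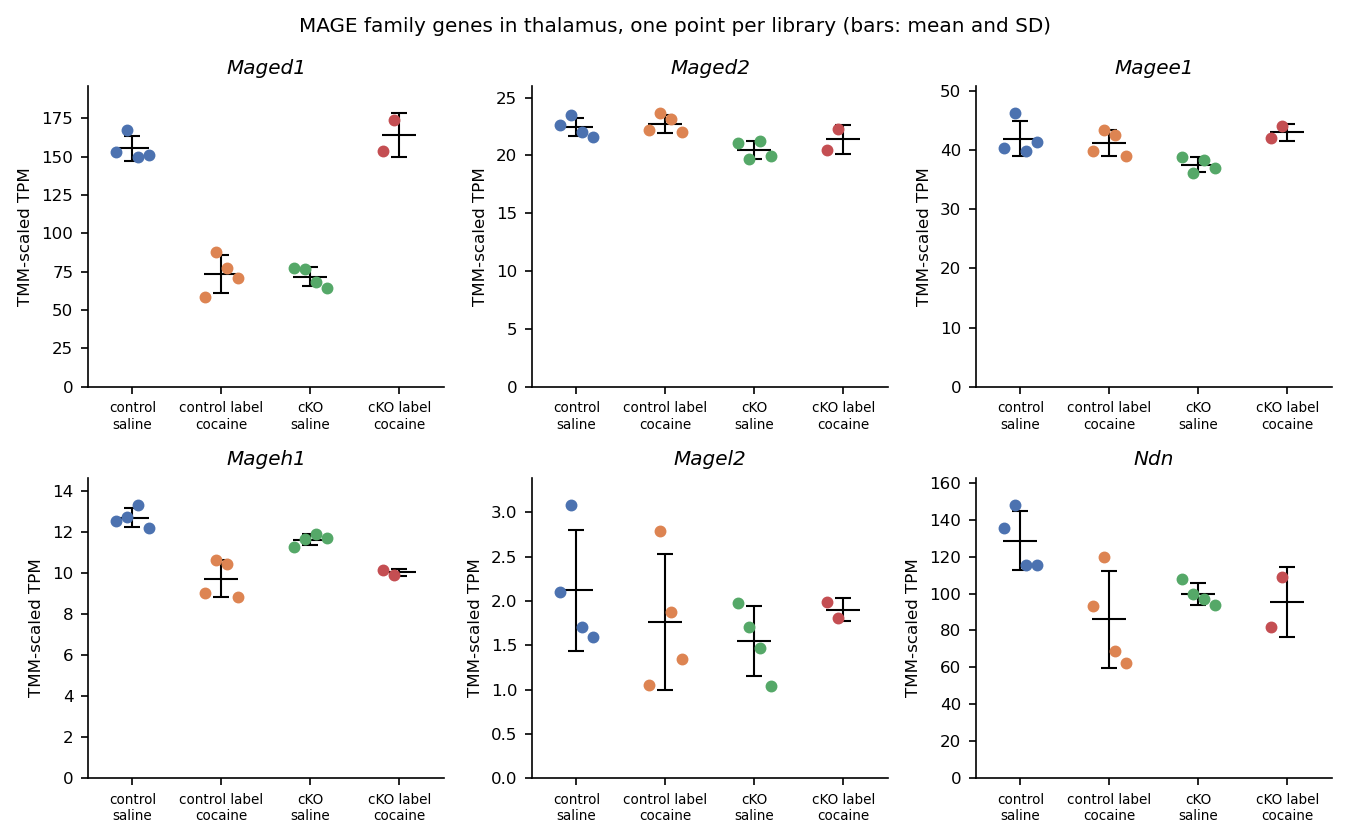
TMM-scaled TPM of the 6 MAGE genes by group, with 1 point per library and bars for the mean and SD (n = 4, and n = 2 for the label cKO cocaine). Maged1 falls into a low range in the control-labelled cocaine libraries and in cKO saline (58.5 to 87.7) and a high range in the others (149.9 to 174), Mageh1 is lower in all cocaine libraries than in all saline libraries, and Maged2 hardly varies.

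Maged1, the targeted gene, checks the genotype labels. Its scaled TPM was 153.1, 167.2, 149.9 and 151.3 in control saline and 77.4, 76.6, 68.2 and 64.6 in cKO saline, in the order of the replicates. The control-labelled cocaine libraries had 58.5, 87.7, 77.3 and 70.7, and the cKO-labelled ones 153.8 and 174. In the 4 saline libraries whose tag names the other genotype, Maged1 went with the title and against the tag. Control replicates 3 and 4 had 149.9 and 151.3, and cKO replicates 1 and 2 had 77.4 and 76.6. After saline the low libraries were thus those labelled cKO, and after cocaine those labelled control, so the gene goes against the genotype labels of the cocaine libraries. These are therefore called by their labels throughout, and every direction between genotypes after cocaine, or between treatments within a genotype label, rests on those labels. In bulk tissue, fewer cells that express a gene and less RNA per cell cannot be told apart.

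Between cKO and control after saline, Maged1 was lower by a log2 fold change of -1.11 (SE 0.10, adjusted p = 0.00116, limma). With the genotype taken from the tags it was -0.15 (adjusted p = 1), and among the libraries whose tag and title agree -1.26 (adjusted p = 0.234, limma), and neither was called. By the tags, and among the libraries that agree, 0 of all tested genes were called. By the titles, Maged1 was the only 1 of the 6 genes called, at an adjusted p under 0.05 over all tested genes and a log2 fold change of 0.5 or more in either direction, where 0.052% of the tested genes were called. The other 5 genes had lower means in cKO saline as well, at log2 fold changes of -0.13 for Maged2 (SE 0.04, adjusted p = 0.163), -0.15 for Magee1 (SE 0.05, adjusted p = 0.168), -0.12 for Mageh1 (SE 0.06, adjusted p = 0.299), -0.34 for Magel2 (SE 0.23, adjusted p = 0.492) and -0.36 for Ndn (SE 0.17, adjusted p = 0.311, all limma). All 4 cKO saline libraries lay below all 4 control saline libraries for 5 of the 6 genes, Magel2 being the exception. For each of these 5 the two-sided exact permutation test gave p = 0.0286, the smallest that the group sizes allow. Exact p-values here and below are unadjusted, from 36 tests of 6 genes in 6 pairs of groups. Of all tested genes, 12.6% did not overlap between these groups and 6.44% lay wholly below in cKO. With TPM as deposited, the count of 5 fell to 2, Maged1 and Ndn, and the share of all tested genes was 10.4%.

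Ndn illustrates the size of these differences after saline. Its scaled TPM was 135.6, 148, 115.5 and 115.5 in control saline and 107.7, 99.97, 96.8 and 93.8 in cKO saline. The groups were apart, by a gap smaller than the spread within control saline. Maged2, at 22.6, 23.5, 22.1 and 21.6 in control saline and 21.1, 19.7, 21.2 and 19.95 in cKO saline, was apart by a smaller gap still, on values that varied by 3.56% (coefficient of variation, CV) within control saline.

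After cocaine, Maged1 was the only 1 of the 6 genes called between the libraries labelled cKO and those labelled control, with a log2 fold change of 1.16 (SE 0.13, adjusted p = 0.00356, limma), where 0.0371% of the tested genes were called. Both cKO-labelled cocaine libraries lay above all 4 control-labelled ones (p = 0.133 in the two-sided exact permutation test, its lowest value for 2 against 4). Without cKO cocaine replicate 2 the log2 fold change was 1.07 and no longer called (adjusted p = 0.0822, limma, with the lone library taken to vary like the other groups). The other 5 genes overlapped between these groups, where 17.5% of the tested genes did not. Their log2 fold changes ran from -0.09 for Maged2 (95% interval -0.20 to 0.03) to 0.18 for Ndn (95% interval -0.27 to 0.64), and intervals as wide as that of Ndn leave larger differences possible.

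Between cocaine and saline within the control label, 2 of the 6 genes were called, Maged1 and Ndn, both lower, where 3.08% of the tested genes were called and 1.66% were called lower. Maged1 had a log2 fold change of -1.09 (SE 0.10, adjusted p = 5.22e-05, limma), with all 4 control-labelled cocaine libraries below all 4 control saline libraries (two-sided exact permutation test, p = 0.0286). In the cKO label, 1 of the 6 genes was called, again Maged1, where 3.14% of the tested genes were called. Its direction was opposite there, a log2 fold change of 1.19 (SE 0.13, adjusted p = 0.000207, limma). The difference between these 2 changes was tested as an interaction and was 2.28 (SE 0.16, adjusted p = 5.53e-05, limma). It was called for 1 of the 6 genes, where 0.802% of the tested genes were called. For the other 5 genes the interaction ran from 0.04 for Maged2 (SE 0.07, adjusted p = 0.802) to 0.55 for Ndn (SE 0.27, adjusted p = 0.311, limma).

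Ndn was the second gene called in the control label. Its scaled TPM was 93.1, 119.8, 68.8 and 62.5 in the control-labelled cocaine libraries, against 115.5 to 148 in control saline. Replicate 2 reached into the control saline range and replicates 3 and 4 were the lowest of all 14 libraries, so that the ranges overlapped (p = 0.0857 in the two-sided exact permutation test). The log2 fold change was -0.62 (SE 0.17, adjusted p = 0.0207, limma). The call rested on single libraries: the adjusted p was 0.0594 without control cocaine replicate 3 (log2 fold change -0.53), 0.0602 without control cocaine replicate 4 (-0.48) and 0.0598 without control saline replicate 2 (-0.55). In the cKO label Ndn was at 82.1 and 109 after cocaine, on either side of the cKO saline libraries, with a log2 fold change of -0.07 (SE 0.21, adjusted p = 0.846, limma).

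Mageh1 was lower in every cocaine library, of either genotype label, than in every saline library. Its scaled TPM was 12.5, 12.7, 13.3 and 12.2 in control saline and 11.3, 11.7, 11.9 and 11.7 in cKO saline. After cocaine the control-labelled libraries had 9.04, 10.6, 10.4 and 8.83 and the cKO-labelled 10.1 and 9.91, so that the 6 cocaine libraries did not overlap the 8 saline libraries. The share of all tested genes set apart in this way was not counted. Between cocaine and saline, 25.2% of the tested genes did not overlap in the control label and 43.8% in the cKO label. Averaged over the genotype labels, a contrast that has the same value if the labels of the cocaine groups are exchanged, the log2 fold change was -0.29 (SE 0.04, adjusted p = 0.000413, limma). Within the control label it was -0.37 (SE 0.06, adjusted p = 0.000807) and within the cKO label -0.20 (SE 0.07, adjusted p = 0.0534, limma). These changes are under the fold minimum, so Mageh1 was not called. Under the averaged contrast 33.1% of the tested genes had an adjusted p under 0.05 with no fold minimum, and 15.3% were lower. With median-of-ratios factors the averaged log2 fold change was -0.30, and with TPM as deposited, which shift the median of all genes by -0.335, it was -0.65.

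In that averaged contrast, 0 of the 6 genes were called, where 2.07% of the tested genes were called. At an unadjusted p under 0.05, 2 of the 6 passed in limma, Mageh1 and Ndn, where 42.9% of the tested genes passed. In the other comparisons the share of tested genes at an unadjusted p under 0.05 was 37.1% between cocaine and saline in the control label, 34% in the cKO label, 16.7% between the genotypes after saline, 11.9% between the labels after cocaine and 18.1% in the interaction. In the averaged contrast Ndn had a log2 fold change of -0.34 (SE 0.14, adjusted p = 0.0693) and Maged1 one of 0.05 (SE 0.08, adjusted p = 0.678, limma). With TPM as deposited, Mageh1 and Ndn were called, where 17.4% of the tested genes were, 2290 of 2346 of them lower, and the log2 fold change of Maged1 turned to -0.33.

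Maged2, the relative of Maged1 that lies on the same chromosome, had 22.2, 23.6, 23.2 and 21.99 scaled TPM in the control-labelled cocaine libraries and 20.5 and 22.3 in the cKO-labelled cocaine libraries. These overlapped the saline libraries of the same label. Its log2 fold change between cocaine and saline was 0.02 in the control label (95% interval -0.07 to 0.11) and 0.06 in the cKO label (95% interval -0.05 to 0.17). With TPM as deposited both turned negative, at -0.34 and -0.32, by about the shift of the median gene.

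Magee1 was 40.2, 46.2, 39.8 and 41.3 scaled TPM in control saline and 39.8, 43.4, 42.5 and 38.9 in the control-labelled cocaine libraries, which overlapped (log2 fold change -0.02, 95% interval -0.14 to 0.09). The cKO saline libraries had 38.9, 36.0, 38.2 and 37.0, and both cKO-labelled cocaine libraries, at 41.9 and 44.0, lay above them. Here the log2 fold change was 0.19 (SE 0.06, adjusted p = 0.0482, limma), under the fold minimum, and -0.20 with TPM as deposited. Of the 6 genes, 3 did not overlap between cocaine and saline in the cKO label (Maged1 and Magee1 above, Mageh1 below), where 43.8% of the tested genes did not. In the control label 2 did not overlap, Maged1 and Mageh1, where 25.2% of the tested genes did not.

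Magel2 was the lowest of the 6 genes and had the highest CV of them within each group of 4 libraries. It had 2.10, 3.08, 1.703 and 1.59 scaled TPM in control saline and 1.98, 1.703, 1.47 and 1.04 in cKO saline. It had 1.05, 2.79, 1.88 and 1.34 in the control-labelled cocaine libraries and 1.99 and 1.81 in the cKO-labelled cocaine libraries. The groups of 4 had CVs from 25.8% to 43.5%, every pair of groups overlapped, and the log2 fold change between cocaine and saline was -0.24 in the control label (95% interval -0.74 to 0.27) and 0.25 in the cKO label (95% interval -0.37 to 0.87). Differences of the size called for Ndn could not be told from the spread at these levels.

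**Figure D2:**
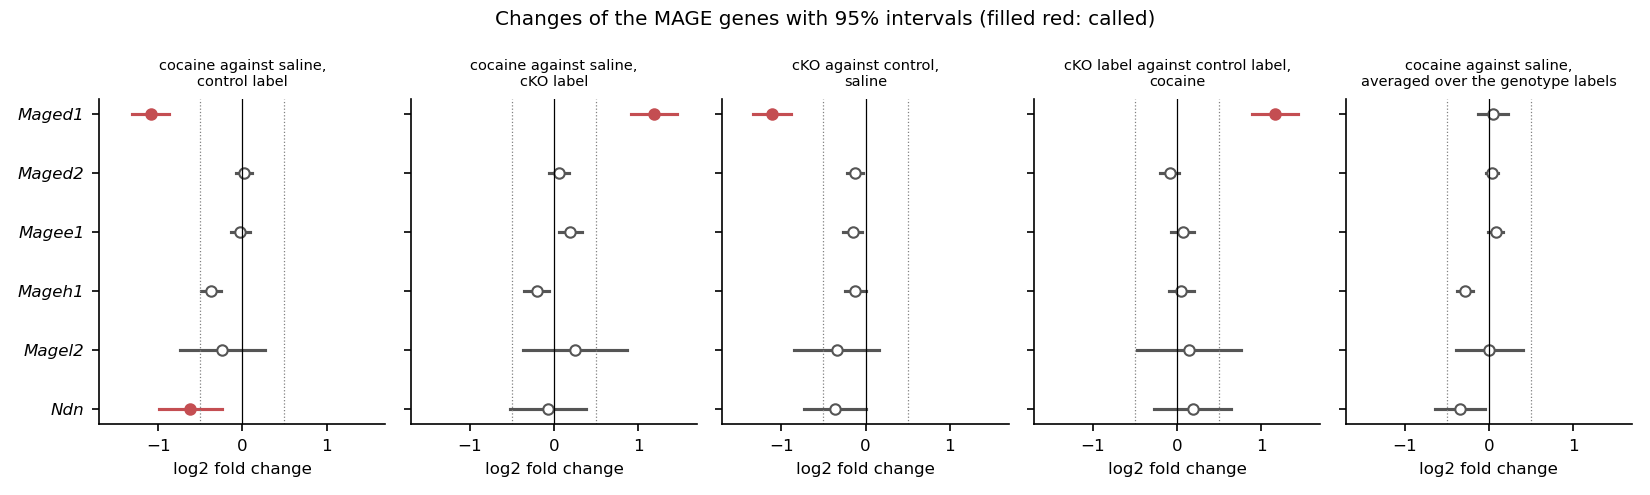
Log2 fold changes of the 6 MAGE genes in 5 comparisons with 95% intervals from limma; filled red points are called genes and dotted lines mark the fold minimum of 0.5. Maged1 is called in opposite directions in the 2 genotype labels and lies at 0.05 when these are averaged, Ndn is called in the control label alone, and Mageh1 lies below 0 in all comparisons of cocaine with saline.

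The 2 groups with low Maged1, which are labelled control cocaine and cKO saline and differ in label and treatment, were set side by side. Maged1 overlapped between them (log2 difference 0.02, two-sided exact permutation test, p = 0.857). The groups were picked by their level of Maged1, so its overlap here and in the pair below carries no information. Maged2 and Magee1 lay wholly above in the control-labelled cocaine libraries (log2 differences 0.15 and 0.13) and Mageh1 wholly below (-0.25), each with p = 0.0286 in the two-sided exact permutation test. Of the tested genes, 24.4% did not overlap between these groups. Between the groups with high Maged1, labelled cKO cocaine and control saline, Maged1 overlapped as well (log2 difference 0.07, exact permutation test, p = 0.267). Mageh1 (-0.32) and Ndn (-0.43) lay wholly below in the cKO-labelled cocaine libraries (exact permutation test, p = 0.133, the smallest possible), where 41.1% of the tested genes did not overlap.

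Maged1 and Ndn together made up most of the summed level of the 6 genes, and their order changed between groups. The sum was 363.1 ± 27.4 scaled TPM in control saline, 235 ± 36.5 in the control-labelled cocaine libraries, 242.4 ± 12.8 in cKO saline (SD, n = 4 each) and 310.5 and 361 in the cKO-labelled cocaine libraries. Maged1 made up 41.7% to 44.1% of it in control saline, 26.2% to 34.6% in the control-labelled cocaine libraries, 28.3% to 31.2% in cKO saline, and 49.5% and 48.2% in the cKO-labelled cocaine libraries. Ndn exceeded Maged1 in 6 libraries, all 4 of cKO saline and replicates 1 and 2 of the control-labelled cocaine libraries, and Maged1 exceeded Ndn in the other 8. Without Maged1, the sum of the other 5 genes was 192.1 to 233.4 in control saline, 133.5 to 200.3 in the control-labelled cocaine libraries, 163.4 to 180.9 in cKO saline, and 156.7 and 187 in the cKO-labelled cocaine libraries. These sums overlapped between the libraries with low and with high Maged1. The ratio of Magee1 to Maged2 kept between 1.77 and 2.05 in all 14 libraries.

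**Figure D3:**
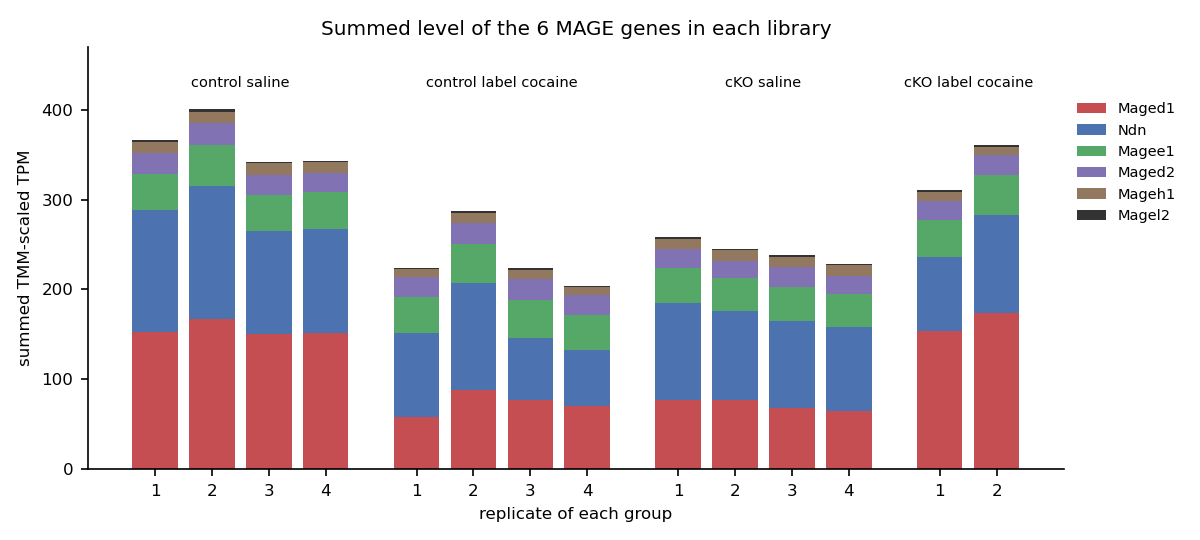
Stacked TMM-scaled TPM of the 6 MAGE genes in each library, with bars starting at 0 and libraries numbered by replicate within their group. The sum is 342.3 to 400.7 in control saline, 204.2 to 288 in the control-labelled cocaine libraries, 228 to 258.3 in cKO saline, and 310.5 and 361 in the cKO-labelled cocaine libraries, and the Maged1 segment is 58.5 to 87.7 in both groups with the lower sums.

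Of a list of 35 further symbols of the family, 20 were in the files and 5 passed the filter. These were Tro (trophinin, a cell adhesion protein of the D subfamily), Nsmce3 (a subunit of the SMC5/6 DNA repair complex), Magee2, Magef1, whose symbol was added to the list after those of the files had been seen, and the pseudogene Mageb16-ps1. Of these 5, 0 were called in any of the 6 comparisons (limma), and 1 or 2 of them had an unadjusted p under 0.05 in each. Tro had 28.4 ± 2.08, 29.6 ± 2.18 and 25.2 ± 1.97 scaled TPM in control saline, in the control-labelled cocaine libraries and in cKO saline (SD, n = 4 each), and 29.7 and 31.4 in the cKO-labelled cocaine libraries. Averaged over the genotype labels, its log2 fold change with cocaine was 0.17 (SE 0.05, adjusted p = 0.0295, limma), under the fold minimum, and it turned to -0.21 with TPM as deposited. Magef1, which partners with the ligase NSMCE1, had 2.54, 2.48, 2.60 and 2.19 in control saline and 1.31, 1.699, 1.76 and 2.16 in the control-labelled cocaine libraries, so that all 4 lay below (log2 fold change -0.41, SE 0.11, adjusted p = 0.0131, limma, under the fold minimum). In the cKO label it had 2.57 and 2.19 after cocaine against 1.95 to 2.30 after saline (log2 fold change 0.11, SE 0.13, adjusted p = 0.589, limma). Nsmce3 had between 8.34 and 10.5 in all libraries. Of the A and B type genes, 12 were listed at 0 in every control saline library and 13 in every cocaine library of either label.

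**Figure D4:**
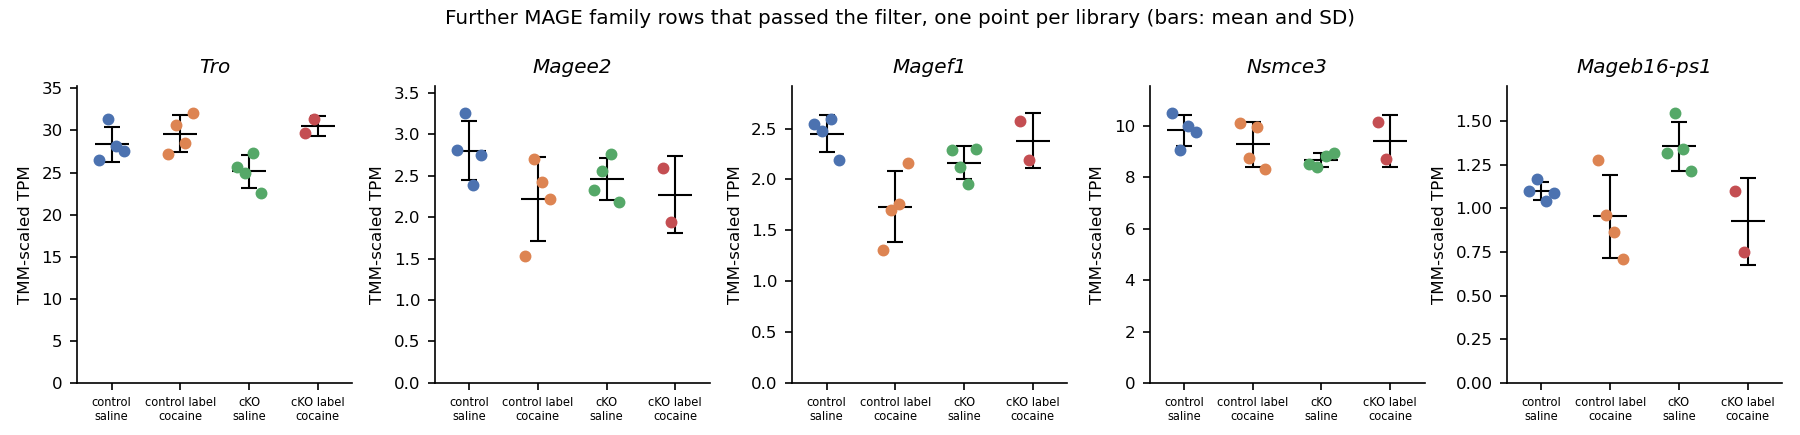
TMM-scaled TPM of the 5 further MAGE family genes that passed the filter, 1 point per library with the mean and SD of each group. Tro lies between 22.6 and 32.1 and Nsmce3 between 8.34 and 10.5, while Magee2, Magef1 and Mageb16-ps1 stay under 3.3.

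Among genes whose proteins are known to bind MAGE proteins, 22 of 27 listed were tested and 0 were called in any of the 6 comparisons (limma), with 7 at an unadjusted p under 0.05 in the control label, 14 in the cKO label, 4 between the genotypes after saline, 6 between the labels after cocaine, 14 averaged and 5 in the interaction, beside the shares of all genes given above. Their median log2 fold change was -0.02 in the control label and -0.13 in the cKO label, beside 0.00 and 0.01 over all tested genes. Pja1 (praja1), a ubiquitin ligase that binds MAGED1, had 48.6 ± 2.41 scaled TPM in control saline and 53.9 ± 3.39 in the control-labelled cocaine libraries (SD, n = 4 each). Its log2 fold change averaged over the labels was 0.19 (SE 0.04, adjusted p = 0.00328, limma), under the fold minimum, and it turned to -0.19 with TPM as deposited. Usp7, a deubiquitinase that binds several MAGE proteins and their ligases, had 19.4 ± 0.828, 19.0 ± 0.445 and 20.1 ± 0.453 in the same order of groups as Tro above (SD, n = 4 each), and 18.4 and 18.6 in the cKO-labelled cocaine libraries (averaged log2 fold change -0.07, SE 0.03, adjusted p = 0.0743, limma).

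Of 17 genes listed around Ndn and Magel2 in the imprinted domain, 13 were tested. In limma, 0 were called in the control label (3 at an unadjusted p under 0.05) and 0 between the genotypes after saline (0 at an unadjusted p under 0.05) or after cocaine (2 at an unadjusted p under 0.05). In the cKO label 1 was called higher and 1 lower: Ipw, a noncoding RNA of the domain, with a log2 fold change of 2.505 (SE 0.60, adjusted p = 0.012), and Nipa2, a magnesium transporter, with -0.54 (SE 0.10, adjusted p = 0.00381, limma). Ipw was low, with 0.448 ± 0.234 scaled TPM in control saline and 1.62 ± 1.12 in the control-labelled cocaine libraries (SD, n = 4 each), and 3.67 and 4.06 in the cKO-labelled cocaine libraries. Averaged over the labels it was the 1 gene called, at 1.71 (SE 0.39, adjusted p = 0.00482, limma). At an unadjusted p under 0.05, 8 of the 13 passed in the cKO label and 8 in the averaged contrast (limma). The shares of all tested genes there were 34% and 42.9%. Negative log2 fold changes were found for 9 and 10 of the 13 in these comparisons. In the interaction 0 were called, with 2 at an unadjusted p under 0.05, beside 18.1% of all tested genes. Ube3a, a ubiquitin ligase expressed in neurons from the maternal chromosome, was 17.3 ± 0.551 in control saline, 13.95 ± 0.705 in the control-labelled cocaine libraries and 17.5 ± 0.793 in cKO saline (SD, n = 4 each), with an averaged log2 fold change of -0.33 (SE 0.04, adjusted p = 5.93e-05, limma), under the fold minimum. Snrpn, a splicing protein expressed like Ndn from the paternal chromosome, was 160.6 ± 7.97 in control saline and 166.9 ± 11.7 in the control-labelled cocaine libraries, with an averaged log2 fold change of 0.00 (SE 0.06, adjusted p = 0.965, limma).

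Markers of the dissected tissue were present in every library. Slc17a6, which marks Vglut2 neurons, had group means from 80.7 to 88.3 scaled TPM. All 13 thalamus neuron genes of a marker list were tested, and 4 were called higher and 1 lower in the control label, led by Synpo2 (0.60, SE 0.11, adjusted p = 0.00272, limma). The 1 lower was Calb2 (-0.69, SE 0.21, adjusted p = 0.0296, limma), which is also on the habenula list. It was the only gene of the thalamus list called in the cKO label (0.95, SE 0.25, adjusted p = 0.02) and in the interaction (1.64, SE 0.33, adjusted p = 0.0392, limma). Markers of neighbouring tissue and of oligodendrocytes also differed between groups. All 14 ependyma and motile cilia genes tested moved in the direction of Maged1 in each label and between the genotypes after either treatment. In the interaction, 0 of these were called and 13 had an unadjusted p under 0.05, beside 18.1% of all tested genes. There, 5 of the 12 hypothalamus genes tested were called higher (limma), beside 0.802% of all tested genes. Of the 9 oligodendrocyte genes, 8 had a negative interaction. In single libraries the markers were not always in step with Maged1. The summed level of 18 hypothalamus genes was 262.6, 532.4, 269.7 and 148.6 scaled TPM in control saline and 12.9, 143.2, 101.1 and 19.9 in the control-labelled cocaine libraries. The sums were 168.4, 99.4, 53.8 and 26.1 in cKO saline, and 77.8 and 121.2 in the cKO-labelled cocaine libraries, with Nr5a1 at 0 in every library outside control saline. Of the 12 hypothalamus genes tested, 6 were called lower in the control label, led by the peptide hormones Oxt, Avp, Gal and Trh, and 1, Oxt, lower in cKO saline. In the cKO label 1 was called, Cartpt, and in the other direction (log2 fold change 2.498 with cocaine, SE 0.62, adjusted p = 0.0142, limma), against -1.61 in the control label. The summed level of 15 ependyma and motile cilia genes was 55.7 to 60.1 in control saline, 57.3, 36.3, 34.2 and 10.3 in the control-labelled cocaine libraries, 9.08 to 40.8 in cKO saline, and 67.8 and 46.1 in the cKO-labelled cocaine libraries, with Cfap126 at 0 in every library. Habenula genes, 8 in all, summed to 182.8 to 206.9 in control saline, 82.3 to 295 in the control-labelled cocaine libraries, 55.5 to 127.2 in cKO saline, and 193.3 and 160.5 in the cKO-labelled cocaine libraries. The 9 oligodendrocyte genes summed to 1484 to 1759 in control saline, 1631 to 2520 in the control-labelled cocaine libraries, 1806 to 2534 in cKO saline, and 1979 and 1944 in the cKO-labelled cocaine libraries, so that the saline groups did not overlap, and Mobp, a myelin gene, was called higher in the control label (0.60, SE 0.15, adjusted p = 0.0108, limma). Choroid plexus genes reached 1472 in control saline replicate 1, against 6.04 to 59.4 in the other libraries. The part of these markers in the results for Ndn, Magel2 and Maged1 was not tested.

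**Figure D5:**
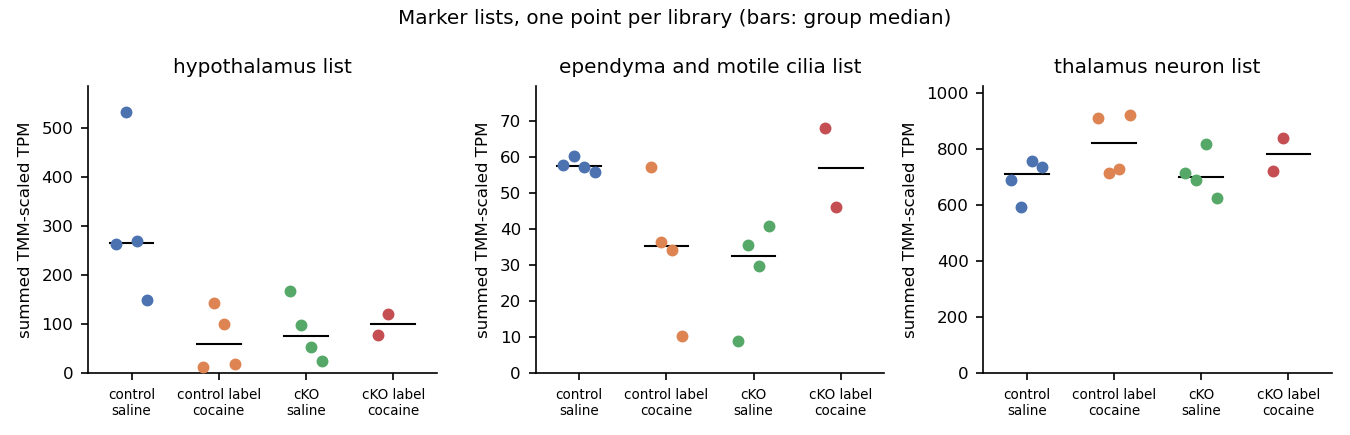
Summed TMM-scaled TPM of 3 marker lists by group, 1 point per library with a bar at the group median. The hypothalamus list has medians of 266.1 in control saline, 60.5 in the control-labelled cocaine libraries, 76.6 in cKO saline and 99.5 in the cKO-labelled cocaine libraries, while the thalamus neuron list keeps between 593.6 and 923.9.

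For each of the 6 genes, the tested genes with the most similar course over the 14 libraries were taken by the smallest root-mean-square difference of log2 values, each centred on its own mean. For Maged1 these were Rab3b (0.29), the galanin receptor gene Galr1 (0.29) and the retinoid receptor gene Rxrg (0.32), beside a root-mean-square deviation of Maged1 from its own mean of 0.57. Rab3b had 4.14 ± 0.824 scaled TPM in control saline, 2.19 ± 0.594 in the control-labelled cocaine libraries and 1.98 ± 0.812 in cKO saline (SD, n = 4 each). For Ndn they were Minar2 (0.18), Ahi1 (0.18) and Unc5d (0.18), and for Magel2 Parm1 (0.13), the neurokinin receptor gene Tacr3 (0.15) and Dgkk (0.16). The genes closest to Mageh1 included Pcdh19 (0.05) and Ubr1 (0.07). Maged2 (Prmt1, Rtcb and Eif4b, 0.04 each) and Magee1 (Rpl3, Zwint and Cant1, 0.05 each) varied so little that 1583 and 876 genes, respectively, lay within 0.1 of them, against 141 for Mageh1 and 0 for each of Maged1, Magel2 and Ndn. Among the 6 genes themselves, Maged2 and Magee1 were the closest pair (0.06).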

How the data were processed

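RNA from whole thalamus was depleted of ribosomal RNA and sequenced. Per the paper's methods and the submitters' notes, the authors aligned reads with STAR 2.5.3a to GRCm38.p4 (mm10) and quantified genes with Salmon and tximport. The authors deposited 1 table of TPM per library, normalized for transcript length and library total. The 25080 values of a library summed to between 312659 and 377401, less than a full set of TPM would. In 2 tables, whose deposited values are recorded under another unit (other), TPM carry decimal commas, which were read as points. These are control saline replicate 4 and cKO cocaine replicate 1, the latter 1 of only 2 libraries in its group. TPM keep no depth, so counting error is unknown.

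TPM were divided by unweighted TMM factors (30% of log ratios and 5% of mean values trimmed on each side, on the tested genes), 0.5 was added and log2 taken, which understates changes of low genes. limma 3.58.1 (R 4.3.3) fitted 4 group means with an intensity trend, and p-values were adjusted by Benjamini-Hochberg over all 13471 tested genes. Single comparisons used exact permutation tests (scipy 1.17.1, Python 3.11.15). The script for the fit was tested on simulated data. The members and gene lists were chosen with earlier results of these data known. All 6 members are described, as is every further family gene that passed the filter; of the other lists, at most 4 called genes a comparison were named, by smallest adjusted p, and each member's 3 closest genes, of which 1 for Mageh1 is not reported here. Rab3b, Pja1, Usp7, Ube3a, Snrpn, Slc17a6 and Calb2 were given values after theirs had been seen. Groups follow sample titles; no label says whether libraries were prepared in batches, so p-values measure the spread between these libraries. No library duplicated another: of 91 pairs, none held equal TPM in more than 77 of the 13471 tested genes (0.572%).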

Additional observations from a re-analysis of the deposited data

Results flagged for a closer look

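The log2 fold change of Maged1 between cocaine and saline differed between the genotype labels by 2.28 in the interaction of the limma fit (SE 0.16, adjusted p = 5.53e-05). It rests on the genotype labels of the cocaine libraries, which the levels of Maged1 go against. Averaged over the labels, the log2 fold change of Maged1 was 0.05 (SE 0.08, adjusted p = 0.678, limma). The 4 libraries labelled control cocaine lay below the 4 control saline libraries, and both libraries labelled cKO cocaine lay above the 4 cKO saline libraries. With the genotype taken from the tags the interaction was 1.31 (adjusted p = 0.779, limma). No library stood apart from its group by Dixon's test in any of the 18 combinations of a gene with a group of 4 libraries.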

How the results depend on the processing

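Of 822 values of single genes under 23 alternatives, 777 kept their direction and side of the threshold, 13 fell below it, 4 passed it and 28 changed sign. The limits are the unknown depth, the 2 libraries labelled cKO cocaine, the scaling and the genotype labels; apart from the shift given for TPM as deposited, causes of the changes below were not tested.

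TPM as deposited shift the median log2 fold change of all genes between cocaine and saline by -0.335 in the control label, -0.346 in the cKO label and -0.335 averaged. With them, 2 genes were called in the cKO label (Maged1, Mageh1; 23.4% of all tested genes) and 2 in the averaged contrast (Mageh1, Ndn; 17.4%). The counts of genes without overlap became 5 between cocaine and saline in the control label (61.6% of all tested genes), 5 in the cKO label (67.4%), 2 between the saline groups (10.4%) and 5 between the label cKO cocaine and control saline (64.8%). Log2 fold changes that turned negative with that shift were -0.345 for Maged2 in the control label, -0.324 for Maged2, -0.195 for Magee1 and -0.052 for Magel2 in the cKO label, and -0.331 for Maged1, -0.334 for Maged2, -0.294 for Magee1 and -0.288 for Magel2 in the averaged contrast. Median-of-ratios factors gave -0.002 for Magel2 in the averaged contrast. With no filter on low values, 1 gene was called in the control label (Ndn lost, adjusted p = 0.0605, limma), where 1.43% of the 25080 genes were called.

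With the genotype tag, 0 genes were called in any of the 6 comparisons (limma, with 1 or 2 at an unadjusted p under 0.05 in each, beside 2.22% to 40.4% of all tested genes). Of all tested genes, 1.96% were called in the control label, 2.23% in the cKO label, 2% averaged, 0.0148% between the cocaine groups, 0.00742% in the interaction and 0 genes between the saline groups. Maged1 was at -0.606 in the control label, 0.707 in the cKO label, -0.150 between the saline groups, 1.16 between the cocaine groups and 1.31 in the interaction, and Magee1 turned to 0.033 in the control label, Mageh1 to 0.024 between the saline groups and the interaction of Maged2 to -0.058. The 10 libraries whose tag and title agree were an alternative chosen after seeing the data. Among them 1 gene was called in the control label, where 2.12% of all tested genes were called. Between the saline groups 0 were called, where 0 of all tested genes were, and Maged1 was at -1.26 (adjusted p = 0.234, limma). Maged2 turned to -0.018 in the control label and Magel2 to -0.013 in the averaged contrast.

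With each library left out in turn, counts of called genes ran from 1 to 2 in the control label. The count was 1 without control cocaine replicate 3, control cocaine replicate 4 or control saline replicate 2. In these fits 378, 314 and 345 of the 13471 tested genes were called. Between the cocaine groups the log2 fold change of Maged1 ran from 1.06 to 1.25. Values that changed sign ran from -0.050 to 0.023 (Magee1, control label), -0.275 to 0.132 (Ndn, cKO label), -0.020 to 0.343 (Magel2) and -0.019 to 0.387 (Ndn) between the cocaine groups, -0.093 to 0.089 (Magel2, averaged) and -0.019 to 0.10 (Maged2, interaction).

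Replicate numbers did not pair the libraries: across genes, the residuals of libraries that share a number correlated by -0.0138 on average (18 pairs, -0.165 to 0.103), against 0.00458 for different numbers (54 pairs). A replicate block left 2, 1, 1, 1, 0 and 1 genes called in the 6 comparisons, as without it, and turned Magel2 to -0.031 between the cocaine groups and -0.080 in the averaged contrast.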
